A study of Mus musculus with 12 samples.

Results

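The comparison set 3 arrays of a mouse embryonic stem cell line with knockdown of PRMT1 (siPRMT1) against 3 arrays of a control line given a scrambled, non-targeting sequence (siSCR), 6 of the 12 arrays in the series. All were chosen by their labels. Both lines were made from D3 embryonic stem cells and had been differentiated for 16 days, through embryoid bodies grown without the self-renewal factor LIF, into cultures labelled as neurons. The other groups of the series were unmodified D3 cells and a PRMT8 knockdown line (siPRMT8), each with 3 arrays. D3 cells served here as a second control that no sequence had been introduced into. Each group is 1 line, and its 3 replicates are labelled as biological without saying whether they were separate differentiations. The p-values therefore measure the spread between these cultures, and what belongs to a line and what to its knockdown cannot be told apart.

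PRMT1 is an enzyme that adds methyl groups to arginines of other proteins and makes most of the asymmetric dimethylarginine in mammalian cells. Its known substrates include histone H4, where the mark goes with active genes, and many RNA-binding proteins of the nucleolus and of splicing, whose arginine-glycine repeats it modifies. In the developing nervous system it is known for roles in the balance between dividing progenitors and differentiating neurons.

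Prmt1 itself, examined first as a check of the labels, read 7.72, 7.95 and 7.59 on the log2 scale in siPRMT1, against 8.84, 8.74 and 8.86 in siSCR. The D3 arrays gave 8.69 to 8.86. The siPRMT1 arrays lay below all other arrays, and siSCR replicate 1 lay among the other controls for this gene. Prmt1 fell by 1.06 (SE 0.0885, 2.09-fold, limma adjusted p = 0.000115).

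Across the 14953 genes tested, 1073 rose (7.18%) and 1728 fell (11.6%) in siPRMT1 against siSCR, 18.7% in all, where passing means an adjusted p under 0.05 in a limma fit over all 12 arrays. The median difference of all genes was 0.04. Changes of 2-fold or more were mostly falls, 289 against 18 rises. Centring the arrays on the named probe sets, a scaling chosen after the data were seen, gave 2434 higher and 1434 lower genes (62.9% higher, against 38.3%), and quantile normalisation gave 1709 and 1597 (51.7% higher). The arrays read whole cultures, so fewer cells of a type and less RNA per cell cannot be told apart in any value below.

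siSCR replicate 1 stood apart from its group. On the first principal component, which held 61.4% of the variance, it lay at 0.105, with siSCR replicates 2 and 3 at -26.2 and -22.2, D3 at -22.7 to -21.6 and siPRMT1 at 16.2 to 25.7. Without it 3763 genes passed (25.2%), and without siSCR replicate 2 or 3, when it makes up 1 of 2 controls, 1318 or 1317 did. Without siPRMT1 replicate 3 the count was 1771. A fit of these 6 arrays alone called 357 genes. Neuronal marker genes moved with this array. The mean level of 16 neuron markers was 8.31 in siSCR replicate 1, 9.33 and 9.24 in siSCR replicates 2 and 3, 9.31 to 9.43 in D3 and 8.04 to 8.30 in siPRMT1. Against siSCR 12 of these 16 fell and 0 rose, among them the synaptic vesicle genes Syp (-1.24) and Syt1 (-1.39) and the vesicular glutamate transporter Slc17a6 (-1.23). The neuronal tubulin Tubb3 did not pass (-0.47, adjusted p = 0.342), and it passed without siSCR replicate 1 (-0.92, adjusted p = 0.0109). The neurofilament gene Nefm was the marker with the opposite sign, and it did not pass either (0.80, adjusted p = 0.0574). Without siSCR replicate 1 15 of the 16 fell, and without siSCR replicate 2 or 3 8 did. In the fit of these 6 arrays alone 2 fell. The part of this array and of the neuronal markers in the results below was not tested.

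Each gene was then placed by its D3 arrays, on a scale where 0 is the siSCR mean and 1 the siPRMT1 mean. Among the 1073 higher genes the D3 mean lay at a median of 0.04 (quartiles -0.20 and 0.30), nearer to siSCR than to siPRMT1 in 949 of them (88.4%). Among the 1728 lower genes the median was -0.09 (quartiles -0.30 and 0.12), and 1597 (92.4%) were nearer to siSCR. The genes were chosen by their siSCR values, so D3 is the second look at them, but it shares the siPRMT1 arrays. Against D3 764 of the higher and 1477 of the lower genes passed in the same direction, where 26.4% of all genes passed (11.7% higher and 14.7% lower). Another 308 higher and 249 lower genes did not pass against D3, and 3 passed the opposite way. In 726 higher and 1347 lower genes all 3 siPRMT1 arrays lay beyond all 6 control arrays and both comparisons passed. The siSCR and D3 groups themselves differed in 23 genes (0.154%).

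The place of siSCR replicate 1 was measured over the genes that passed without it, with 0 at the mean of siSCR replicates 2 and 3. For the 1617 higher genes it lay at a median of 0.52 (quartiles 0.32 and 0.75), and for the 2146 lower genes at 0.61 (quartiles 0.40 and 0.78). It fell within the range of the siPRMT1 arrays in 405 of the higher (25%) and 482 of the lower genes (22.5%). In 211 higher (13%) and 198 lower genes (9.23%) it stayed with siSCR replicates 2 and 3 or lay beyond them.

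**Figure D1:**
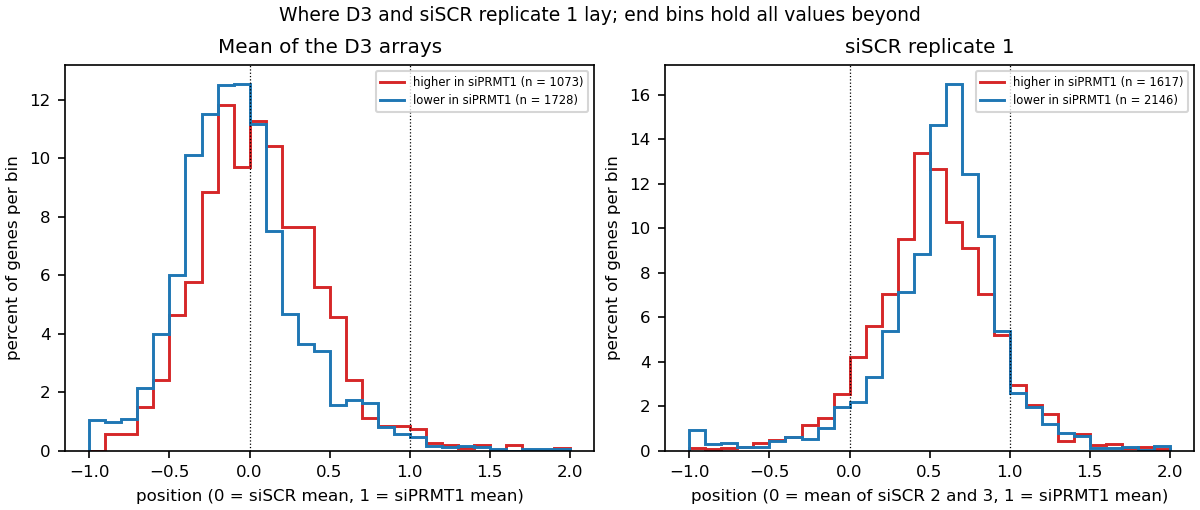
Histograms of the position of the D3 mean (left, genes that passed in siPRMT1 against siSCR) and of siSCR replicate 1 (right, genes that passed without it), as the percent of genes in bins 0.1 wide; red lines are higher and blue lines lower genes. The D3 mean centres near 0, the siSCR level, with medians of 0.04 and -0.09, and siSCR replicate 1 centres between the groups, with medians of 0.52 and 0.61.

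The genes just counted within the siPRMT1 range are those in which siSCR replicate 1 read like a knockdown array, by the way they were picked. Zfp804a, a zinc finger gene expressed in brain, read 7.64 and 7.40 in siSCR replicates 2 and 3 and 7.10 to 7.46 in D3. In siSCR replicate 1 it stood at 6.01, beside 5.91, 6.17 and 6.16 in siPRMT1. Zfp804a passed against siSCR when this array was left out (-1.44, adjusted p = 1.52e-05) and not with the array (-0.94, adjusted p = 0.0595). Against D3 it passed (-1.17, adjusted p = 0.0185). Neto1, an accessory subunit of kainate receptors, behaved alike, at 6.01 in siSCR replicate 1, 7.80 and 7.82 in siSCR replicates 2 and 3, and 5.68 to 6.16 in siPRMT1. Its difference of -1.25 passed with this array (adjusted p = 0.0353) and was lost without siSCR replicate 2 or 3 (-0.95 in both) and when any 1 siPRMT1 array was left out (-1.35 to -1.11). Among the rises the lactate transporter family member Slc16a6 (0.58) and the amino acid transporter Slc7a7 (0.69) passed without siSCR replicate 1 (adjusted p = 0.000683 and 0.00416). With it they lay at 0.39 and 0.41, which did not pass.

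Other genes were picked because siSCR replicate 1 stayed with its group. The lysosomal channel gene Mcoln3 read 6.33, 6.42 and 6.29 in siPRMT1, 5.68, 5.50 and 5.75 in siSCR and 5.60 to 5.94 in D3. No siPRMT1 array overlapped the 6 controls, and Mcoln3 rose by 0.70 (SE 0.108, adjusted p = 0.00204). Ptk6, a non-receptor tyrosine kinase of epithelia, read 7.70, 7.44 and 7.90 in siPRMT1 and 6.60, 6.81 and 6.83 in siSCR, with D3 between them at 7.11 to 7.37. It rose by 0.93 against siSCR (SE 0.125, adjusted p = 0.00108) and by 0.41 against D3 (adjusted p = 0.0297). The matrix proteoglycan Dcn fell by 1.41 (SE 0.249, adjusted p = 0.0037) from 8.69, 8.73 and 8.65 in siSCR, and siPRMT1 replicate 2 (6.64) was lower than siPRMT1 replicates 1 and 3 (7.69 and 7.51).

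Few genes set siPRMT1 apart from all other groups. Against siPRMT8 23 genes passed (0.154%). No member of the gene groups counted in the text was among them, so no group change is shown to be particular to siPRMT1. In the same direction against siSCR, D3 and siPRMT8 9 genes passed (0.0602%). Prmt1, Pdgfc, Mgst1, Tfap2a and Sdc2 fell, and Pga5, Aspa, Agtr1a and Rab3il1 rose. In Prmt1, Pga5, Aspa, Agtr1a, Rab3il1, Pdgfc and Mgst1 siSCR replicate 1 lay close to the other controls.

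Pga5, which encodes the stomach protease precursor pepsinogen, read 9.80, 9.85 and 9.54 in siPRMT1 and 8.65, 8.22 and 8.39 in siSCR. The D3 arrays lay at 8.46 to 8.63 and the siPRMT8 arrays at 8.63 to 8.70, so the siPRMT1 arrays were alone above the other 9. Pga5 rose by 1.31 (SE 0.108, 2.48-fold, adjusted p = 0.000115), and by 1.06 against siPRMT8. Aspa, the enzyme that splits N-acetylaspartate, read 7.46, 6.97 and 7.22 in siPRMT1 and 6.16 to 6.57 over the 9 other arrays. It rose by 0.85 (SE 0.127, adjusted p = 0.00174). Agtr1a, an angiotensin receptor gene, read 8.22, 7.96 and 8.13 in siPRMT1, 7.39, 7.31 and 7.29 in siSCR, 7.53 to 7.61 in D3 and 7.53 to 7.65 in siPRMT8. It rose by 0.77 (SE 0.0725, adjusted p = 0.000198). Rab3il1, an exchange factor of Rab GTPases, rose by 0.31 (SE 0.0702, adjusted p = 0.0115), which was lost without siSCR replicate 2 (0.27, adjusted p = 0.0556).

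Pdgfc, a platelet-derived growth factor ligand, read 7.62, 7.65 and 7.75 in siPRMT1 and 8.33, 8.41 and 8.19 in siSCR, with D3 at 8.21 to 8.37 and siPRMT8 at 8.02 to 8.33. It fell by 0.64 (SE 0.0913, adjusted p = 0.00144). Mgst1, a membrane-bound glutathione transferase, was at 7.48, 7.51 and 7.52 in siPRMT1 and at 7.87 or more in the 9 other arrays. It fell by 0.56 (SE 0.0663, adjusted p = 0.00062). The transcription factor gene Tfap2a had 3 levels. It read 8.60 to 8.85 in D3, 7.34, 7.61 and 7.69 in siSCR, 7.58 to 7.75 in siPRMT8 and 7.03, 7.13 and 7.02 in siPRMT1. Its fall was 0.49 against siSCR (log2 -0.49, SE 0.0965, adjusted p = 0.00614) and 1.70 against D3 (log2 -1.70). The heparan sulfate proteoglycan Sdc2 changed least (-0.23, SE 0.067, adjusted p = 0.0363). Its call was lost without siPRMT1 replicate 1 (-0.20) or 3 (-0.24) and without siSCR replicate 1 (-0.19) or 3 (-0.22).

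The set of 9 depended on single arrays. It shrank to 2, Prmt1 and Pga5, without siPRMT1 replicate 1 or without siPRMT1 replicate 3, to 3 without siSCR replicate 2 and to 4 without siSCR replicate 3. It grew to 25 without siSCR replicate 1 and to 208 without siPRMT1 replicate 2, which lay at 25.7 on the first component where the other siPRMT1 arrays lay at 16.2 and 16.4.

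**Figure D2:**
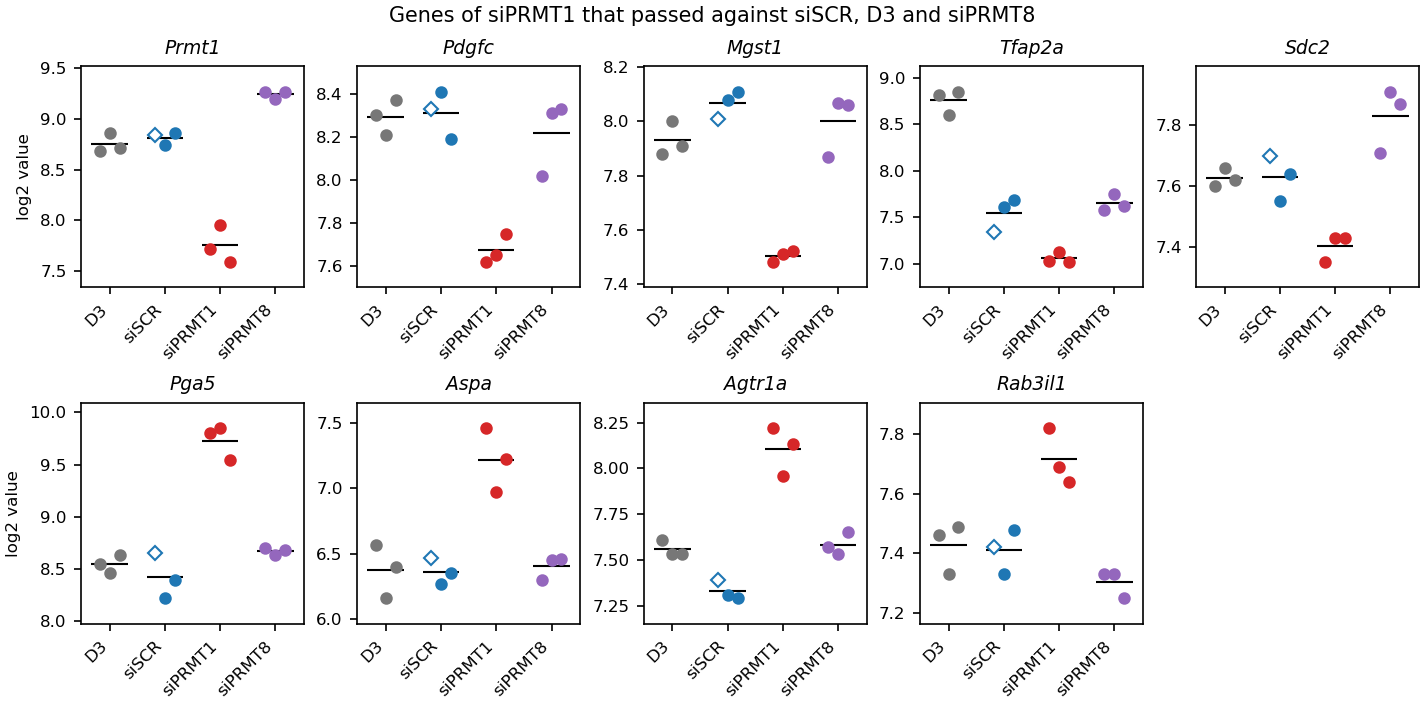
log2 values of the 9 genes that passed in the same direction against siSCR, D3 and siPRMT8, 1 point per array and a line at each group's mean (n = 3); the open diamond is siSCR replicate 1. The siPRMT1 points lie beyond those of the 3 other groups, from 9.54 to 9.85 against 8.22 to 8.70 in Pga5, and the D3 arrays of Tfap2a lie far above the rest.

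Among the rises with the largest changes, D3 lay near siSCR in the following genes. Map7d3, a microtubule-binding protein gene, read 8.19, 8.21 and 8.30 in siPRMT1, 7.32, 7.00 and 7.05 in siSCR and 6.91 to 7.39 in D3. It rose by 1.11 (SE 0.113, 2.16-fold, adjusted p = 0.000304) and by 1.09 against D3. Dnmt3b, a DNA methyltransferase that sets new methylation in early embryos, read 8.58, 9.01 and 9.01 in siPRMT1, 7.98, 7.67 and 7.77 in siSCR and 7.50 to 7.71 in D3. The groups did not overlap, and Dnmt3b rose by 1.06 (SE 0.146, adjusted p = 0.00122). Foxi3, a forkhead factor gene of the otic and pharyngeal placodes, rose by 1.16 (SE 0.201, adjusted p = 0.00349), with a difference of 1.28 from D3. The secreted gastric protein gene Gkn2 rose by 0.91 (SE 0.113, adjusted p = 0.00076) and by 0.77 against D3.

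For other rises the D3 arrays were not with siSCR. The secreted Wnt antagonist Sfrp2 read 9.91, 10.60 and 10.19 in siPRMT1 and 9.54, 9.19 and 9.20 in siSCR, and 10.07, 10.54 and 10.02 in D3. Its rise of 0.92 against siSCR (SE 0.174, adjusted p = 0.00509) stood beside a difference of 0.02 against D3 (adjusted p = 0.936), and the D3 position was 0.98. The bHLH factor Neurod4 (1.15, D3 position 0.95) and the paired box factor Pax3 (1.10, D3 position 0.84) were placed alike, and neither passed against D3 (adjusted p = 0.891 and 0.619). The zinc finger factor Zbtb16 (0.92) lay at 0.56, and its call was lost without siSCR replicate 2 (0.89, adjusted p = 0.0722) or 3 (0.92, adjusted p = 0.0664). Wnt1, a ligand of the midbrain and dorsal neural tube, rose by 0.97 (SE 0.178, adjusted p = 0.00443) and by 0.55 against D3.

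Among the largest falls were genes of neuronal signalling. Pcp4, a calmodulin-binding peptide gene, read 8.00, 7.42 and 8.08 in siPRMT1, 10.15 to 10.29 in D3 and 10.19 and 10.18 in siSCR replicates 2 and 3. siSCR replicate 1, at 9.07, lay between. Pcp4 fell by 1.98 (SE 0.289, 3.95-fold, adjusted p = 0.00163), and its difference from D3 was -2.37. Dner, a neuronal ligand of Notch, fell by 1.89 (SE 0.21, adjusted p = 0.000498), and Kcnip1, a potassium channel partner, fell by 2.02 (SE 0.373, adjusted p = 0.00453). Atp1b2, a sodium pump subunit, fell by 1.96 (SE 0.221, adjusted p = 0.000498), Elmod1, a GTPase-activating protein, fell by 1.96, and the growth cone protein Gpm6a fell by 1.83. Of these, siSCR replicate 1 was closest to its group in Atp1b2, where it read 9.11 beside 9.76 and 9.69, with siPRMT1 at 7.09 to 7.79 and D3 at 9.22 to 9.39.

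Among the genes called in siPRMT1 against siSCR, only 3 followed the pattern in which siSCR passed against D3 and siPRMT1 did not. Gcg, the precursor of glucagon and related peptides, read 6.95, 6.97 and 6.81 in siSCR, 5.69, 5.81 and 5.43 in siPRMT1 and 5.78 to 5.90 in D3. The siSCR arrays were high and did not overlap the other groups, siSCR replicate 1 included. Gcg lay 1.27 lower in siPRMT1 than in siSCR (log2 -1.27, SE 0.0908, adjusted p = 0.000115) and 0.21 lower than in D3 (log2 -0.21, adjusted p = 0.107). Moxd1, a monooxygenase of the dopamine beta-hydroxylase family, was low in siSCR at 6.64, 6.42 and 6.44, with 7.23, 7.40 and 7.38 in siPRMT1 and 6.96 to 7.28 in D3. It differed by 0.84 against siSCR (SE 0.1, adjusted p = 0.00064) and by 0.22 against D3 (adjusted p = 0.119). The retinaldehyde dehydrogenase family member Aldh1a7 was the third. It lay 0.75 below siSCR (log2 -0.75, adjusted p = 0.0269) and 0.55 above D3 (adjusted p = 0.0675). Its siSCR arrays read 7.35, 6.69 and 6.91, and its siPRMT8 arrays were as high (6.64, 7.27 and 7.47). Its call was lost without siPRMT1 replicate 1 (-0.74) or 3 (-0.76) and without siSCR replicate 1 (-0.56) or 3 (-0.78).

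Genes of ribosome biogenesis, the nucleolar pathway that makes and modifies ribosomal RNA, formed the group with the most rises. Of 32 tested members 19 rose and 0 fell, with a median of 0.28 where the median of all genes was 0.04 and 7.18% of all genes rose. Against D3 26 rose, with a median of 0.39. Against siPRMT8 0 passed, with a median of 0.03. Heatr1, a component of the small-subunit processome, read 9.32, 9.26 and 9.23 in siPRMT1, 8.96, 8.86 and 8.67 in siSCR and 8.72 to 8.79 in D3. The siPRMT1 arrays lay above all controls, with siSCR replicate 1 the highest of these, and Heatr1 rose by 0.44 (SE 0.0722, adjusted p = 0.00274). The nucleolar helicase Ddx21 rose by 0.43 (SE 0.0796, adjusted p = 0.00445) and the nucleolar GTPase Gnl3 by 0.43 (SE 0.0717, adjusted p = 0.00297). The median member was 0.20 higher in siSCR replicate 1 than the mean of the other siSCR arrays. Its 19 rises were 25 without siSCR replicate 1 and 9 without siSCR replicate 2 or 3. They were 0 in the fit of the siSCR and siPRMT1 arrays alone.

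Another 3 nucleolar protein genes, Fbl, Ncl and Npm1, were chosen after their values were seen, and none passed against siSCR with all arrays. The rRNA methyltransferase Fbl read 9.78, 9.81 and 9.77 in siPRMT1, 9.80, 9.43 and 9.56 in siSCR and 9.36 to 9.44 in D3. siSCR replicate 1 lay with siPRMT1. The difference was 0.19 (adjusted p = 0.135), and 0.29 without that array (adjusted p = 0.00637). Nucleolin, Ncl, lay at 0.17 (adjusted p = 0.0682), and passed without siSCR replicate 1 (0.20, adjusted p = 0.0349) or without siPRMT1 replicate 2 (0.19, adjusted p = 0.0499). Npm1, nucleophosmin, lay at 0.08 (adjusted p = 0.496). Cytosolic ribosomal proteins moved little, with 1 rise among 57 tested members and a median of 0.04.

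Small nucleolar RNAs guide the modification of ribosomal RNA. They were grouped by symbol after their values were seen. Of all genes 7.18% rose against siSCR and 11.7% against D3. Of 20 tested H/ACA small nucleolar RNAs, the class that guides pseudouridylation, 11 rose and 0 fell (median 0.31), and 13 rose against D3. Of 27 tested C/D small nucleolar RNAs, which guide ribose methylation, 9 rose and 0 fell (median 0.19), and 16 rose against D3. Snora74a read 10.12, 10.04 and 10.18 in siPRMT1, 9.76, 9.58 and 9.80 in siSCR and 9.67 to 9.74 in D3, with no overlap. It rose by 0.40 (SE 0.0764, adjusted p = 0.00539). Snora41 rose by 0.46 (SE 0.0942, adjusted p = 0.00702) and Snord96a by 0.38 (SE 0.0716, adjusted p = 0.00525). In these classes siSCR replicate 1 differed little from siSCR replicates 2 and 3 (medians 0.09 and -0.03). Against siPRMT8 0 passed in either class, with medians of 0.07 and 0.01. The H/ACA count was 10 without siSCR replicate 1 or 3 and 4 without siSCR replicate 2, and the C/D count was 7, 7 and 2 in the same order. Both counts were 0 in the fit of the siSCR and siPRMT1 arrays alone. Most of these RNAs lie in introns of host genes, and the array does not separate the processed RNA from its host transcript. Of 5 host genes named for small nucleolar RNAs, Snhg5 (0.40, adjusted p = 0.00639) and Snhg17 (0.33) rose and the brain-expressed Snhg11 fell (-1.14, adjusted p = 0.00064). The call of Snhg17 was lost without siPRMT1 replicate 3 (0.33), siSCR replicate 2 (0.28) or siSCR replicate 3 (0.32).

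Core spliceosome genes rose in 12 of 36 tested members with 0 falls (median 0.18), where 7.18% of all genes rose. Against D3 17 of the group rose, beside 11.7% of all genes. Against siPRMT8 0 passed, with a median of -0.03. Sf3b3, a subunit of the U2 complex, read 10.89, 11.06 and 10.96 in siPRMT1 and 10.78, 10.60 and 10.50 in siSCR, with D3 at 10.55 to 10.60. It rose by 0.35 (SE 0.0751, adjusted p = 0.00945), and siSCR replicate 1 was the control array nearest to siPRMT1. The 12 rises were 16 without siSCR replicate 1, 2 without siSCR replicate 2 and 3 without siSCR replicate 3. They were 0 in the fit of the siSCR and siPRMT1 arrays alone. The rises of Prpf31 and Sf3a3 (0.41 each) were lost without siSCR replicate 2 (0.37 and 0.31) or 3 (0.38 in both), and that of Prpf31 without siPRMT1 replicate 3 (0.39).

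Other growth-related groups had fewer rises. Of 34 proteasome genes 6 rose (median 0.14), where 7.18% of all genes did, and 13 rose against D3, where 11.7% of all genes did. The 6 were 11 without siSCR replicate 1, 3 without siPRMT1 replicate 1 or 3 and 0 without siSCR replicate 2 or 3. Centring on the named probe sets gave 17 rises in this group, 21 in the core spliceosome, 8 synthetases, 12 histone genes and 6 of the one-carbon group described next. Of 18 aminoacyl-tRNA synthetases 4 rose, and 12 did against D3. Tars, which charges threonine, rose by 0.50 (SE 0.0966, adjusted p = 0.00562). Without siSCR replicate 2 or 3 this group had 1 rise. Of 18 serine, one-carbon and polyamine genes 3 rose, and 9 did against D3 or without siSCR replicate 1. Cth, the enzyme that makes cysteine from cystathionine, rose by 0.51 (SE 0.108, adjusted p = 0.00808). Without siSCR replicate 2 or 3 the group had 1 rise. Of 23 replication-dependent histone genes 7 rose (median 0.20), led by the linker histone H1f1, which read 10.65, 10.81 and 10.64 in siPRMT1 and 10.25, 10.04 and 10.10 in siSCR, with D3 at 9.94 to 10.14. It rose by 0.57 (SE 0.0856, adjusted p = 0.00179). The 7 were 9 without siSCR replicate 1, 4 without siSCR replicate 2 and 3 without siSCR replicate 3. Oxidative phosphorylation showed 1 rise and 1 fall among 57 genes.

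**Figure D3:**
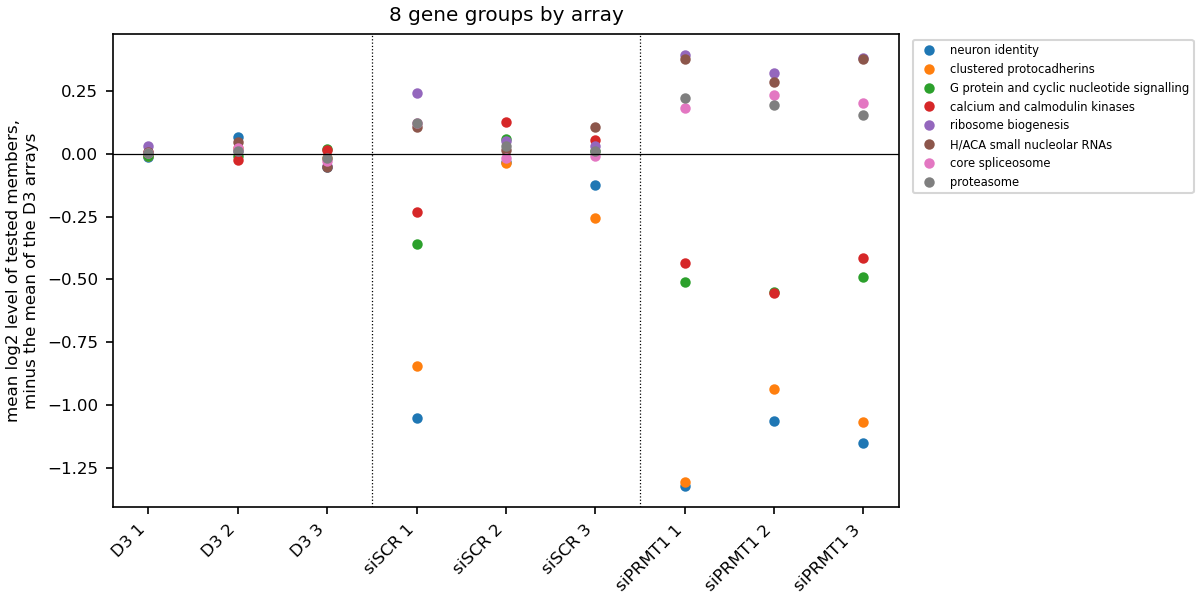
Mean log2 level of the tested members of 8 gene groups in each D3, siSCR and siPRMT1 array, minus the mean of the D3 arrays. siSCR replicates 2 and 3 lie near the D3 line, siSCR replicate 1 lies near the siPRMT1 arrays for neuron markers and protocadherins, and the H/ACA small nucleolar RNAs of siSCR replicate 1 lie with the other siSCR arrays.

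Of the microRNA genes tested 7.58% passed, beside 18.7% of all genes. The array reads RNA over a precursor or its host transcript, not the mature microRNA. Of 296 microRNA genes 132 had levels above the filter on dim genes, and 7 rose and 3 fell. Among the 7, Mir302d, Mir363 and Mir19a had siSCR and D3 means under the filter value of 5.43 and were tested only because the knockdown lines were high, so the count supports nothing about the class. Centring on the named probe sets gave 19 rises and 2 falls, and quantile normalisation 12 and 2. The 10 genes were named after their values were seen. The mature sequences of 7 microRNAs are shown to give the seed, bases 2 to 8, by which each recognises its targets, in capitals, as listed by RefSeq for GRCm38.p6, where all 10 genes were found.
miR-302d-3p: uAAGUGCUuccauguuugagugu
miR-18a-5p: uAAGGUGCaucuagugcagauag
miR-19a-3p: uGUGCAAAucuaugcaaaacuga
miR-19b-3p: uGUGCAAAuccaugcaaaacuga
miR-363-3p: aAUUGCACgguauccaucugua
miR-219a-5p: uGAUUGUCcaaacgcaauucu
miR-9-5p: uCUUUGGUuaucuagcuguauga
miR-19a and miR-19b share the seed GUGCAAA, and the other 5 seeds differ from it and from each other.

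Mir18, Mir19a and Mir19b-1 lie in 1 cluster on the transcript Mir17hg, a cluster known for its activity in dividing cells. No other gene of this cluster was among the 10 that passed, and whether others were tested is not given here. Mir18 read 7.49, 7.69 and 7.78 in siPRMT1, 6.87, 6.83 and 6.68 in siSCR and 6.73 to 6.88 in D3. The groups were well separated and siSCR replicate 1 lay with its group. Mir18 rose by 0.86 (SE 0.106, adjusted p = 0.00076), Mir19a by 0.81 (SE 0.116, adjusted p = 0.00145) and Mir19b-1 by 0.69 (SE 0.135, adjusted p = 0.00578). The host Mir17hg read 7.44, 7.97 and 7.51 in siPRMT1, 6.97, 6.81 and 6.85 in siSCR and 6.89 to 7.16 in D3, and rose by 0.77 (SE 0.139, adjusted p = 0.00417).

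Mir302d, of a cluster known from pluripotent stem cells, was the only gene of that cluster among the 10. It changed most among the 10 in size, and its arrays spread widely. Its siPRMT1 arrays gave 5.48, 7.21 and 5.87 and its siSCR arrays 4.13, 4.40 and 4.60, with D3 at 4.46 to 4.78, all controls under the filter value. siPRMT1 replicate 2 was the highest of the 3. The rise of 1.81 (SE 0.435, adjusted p = 0.0148) was lost without siSCR replicate 2 (1.82, adjusted p = 0.0502). Mir363 read 6.40, 6.93 and 6.63 in siPRMT1, 5.07, 5.22 and 5.61 in siSCR and 4.77 to 5.18 in D3, and rose by 1.35 (SE 0.185, adjusted p = 0.00114). Mir219a-1 (0.47) and Mir219a-2 (0.78), which encode a microRNA known from oligodendrocytes, rose, and Mir219a-2 did not pass against D3 (0.37, adjusted p = 0.145).

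Mir9-1, 1 of 3 genes for the brain microRNA miR-9, read 5.46, 5.71 and 5.19 in siPRMT1, 5.89, 5.97 and 6.05 in siSCR and 5.90 to 6.04 in D3. It fell by 0.52 (SE 0.108, adjusted p = 0.00805), and siSCR replicate 1 was the lowest control. Mir670 fell by 0.40 (adjusted p = 0.00523). Mir377 fell by 0.33, which was lost without siPRMT1 replicate 1 (-0.27) or 3 (-0.30) and without siSCR replicate 2 (-0.24) or 3 (-0.33). The host transcript Mir100hg fell by 1.23 (SE 0.169, adjusted p = 0.00121) and by 1.61 against D3. Without siSCR replicate 1 12 microRNA genes rose and 7 fell.

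**Figure D4:**
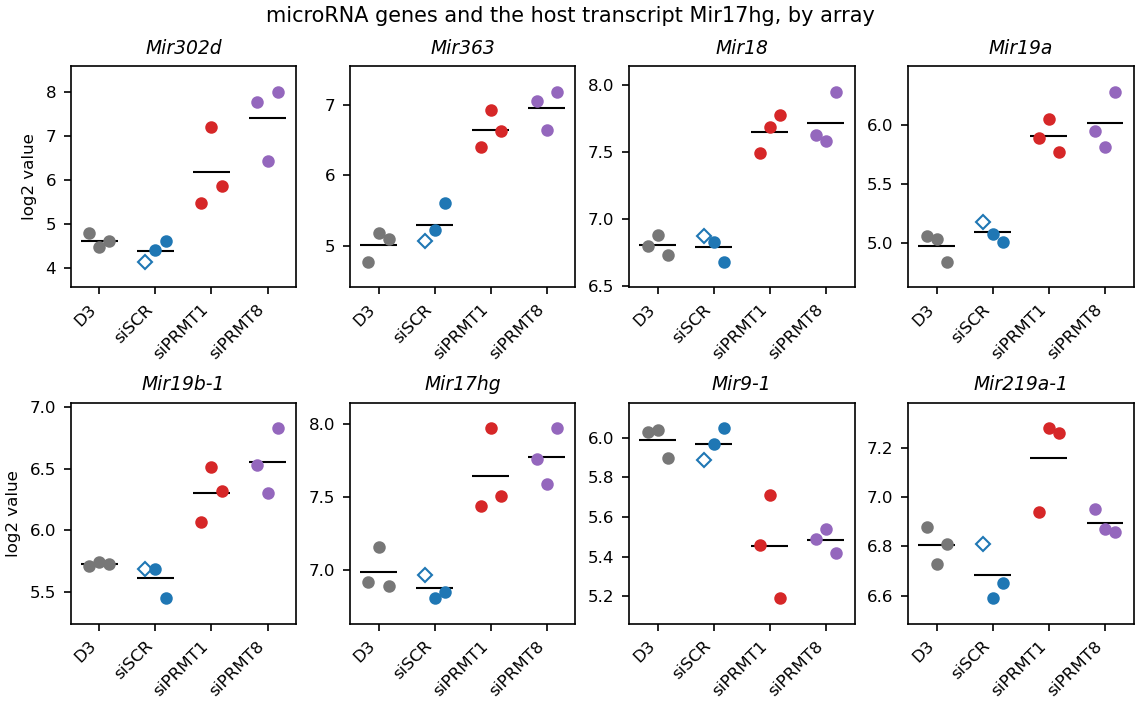
log2 values of 7 microRNA genes and the host transcript Mir17hg, 1 point per array and a line at each group's mean (n = 3); the open diamond is siSCR replicate 1. The siPRMT1 points lie above both control groups in all genes but Mir9-1, where they lie below at 5.19 to 5.71, and siSCR replicate 1 stays with its group.

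Clustered protocadherins are cell-surface proteins whose random combinations give single neurons an identity. Of 58 listed members only 22 were found among the named genes. The 20 of these that passed the filter on dim genes were all of the beta cluster, so the other clusters were not assessed. Of these 14 fell and 0 rose (median -0.75, where 11.6% of all genes fell), and all 20 fell against D3 (median -1.19). Against siPRMT8 0 passed, with a median of -0.23. Pcdhb3 read 6.14, 6.39 and 6.37 in siPRMT1, 6.93, 8.01 and 7.74 in siSCR and 7.65 to 7.82 in D3. siSCR replicate 1 lay between siPRMT1 and the other controls, and Pcdhb3 fell by 1.26 (SE 0.206, adjusted p = 0.00265). Pcdhb2 fell by 1.10 (SE 0.207, adjusted p = 0.00496) and Pcdhb18 by 1.02 (SE 0.213, adjusted p = 0.00809). In siSCR replicate 1 the members were lower than in the other siSCR arrays (median -0.76). The 14 falls were 19 without siSCR replicate 1 and 8 without siSCR replicate 2 or 3. They were 0 in the fit of the siSCR and siPRMT1 arrays alone. Of the 14 falls 3 had siPRMT1 means under the filter value and were tested because the controls were high. These genes are near-copies of each other, so probe sets may read more than 1 member.

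Signalling genes downstream of receptors fell widely. Of 54 genes of G proteins and cyclic nucleotide signalling 28 fell and 2 rose (median -0.32), where 11.6% of all genes fell and 7.18% rose. Against D3 33 of the group fell, beside 14.7% of all genes. Against siPRMT8 0 passed, with a median of -0.01. Gnao1, the main G protein alpha subunit of brain, read 8.77, 8.47 and 8.80 in siPRMT1, 9.64, 10.69 and 10.61 in siSCR and 10.46 to 10.48 in D3. All controls lay above siPRMT1, with siSCR replicate 1 the lowest, and Gnao1 fell by 1.63 (SE 0.221, 3.10-fold, adjusted p = 0.00112). The gamma subunit Gng3 fell by 1.29 (SE 0.273, adjusted p = 0.00859) and the protein kinase A regulatory subunit Prkar1b by 1.28 (SE 0.224, adjusted p = 0.0036). The 28 falls were 33 without siSCR replicate 1, 15 without siSCR replicate 2 and 14 without siSCR replicate 3. They were 2 in the fit of the siSCR and siPRMT1 arrays alone.

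Of 40 calcium and calmodulin kinase genes 23 fell and 1 rose (median -0.33), where 11.6% of all genes fell. Against D3 23 of the group fell, beside 14.7% of all genes. Against siPRMT8 0 passed, with a median of 0.00. Camk2b, a subunit of the synaptic calcium-dependent kinase, read 7.95, 7.57 and 7.88 in siPRMT1, 8.56, 9.36 and 9.36 in siSCR and 8.97 to 9.08 in D3. It fell by 1.30 (SE 0.181, adjusted p = 0.0013) with no overlap, and Camk2d fell by 1.12 (SE 0.166, adjusted p = 0.00174). The calcium sensor Vsnl1 fell by 1.86 (adjusted p = 0.0197), and this call was lost without siSCR replicate 2 (-1.50) or 3 (-1.48). The 23 falls were 26 without siSCR replicate 1 and 13 without siSCR replicate 2 or 3. They were 4 in the fit of the siSCR and siPRMT1 arrays alone. Of 41 ubiquitin ligases and deubiquitinases of neurons 21 fell and 0 rose (median -0.23), led by the ligase Trim67 (-1.32, SE 0.22, adjusted p = 0.00294). They were 24 without siSCR replicate 1, 11 without siSCR replicate 2 and 9 without siSCR replicate 3.

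Receptor groups had falls and no rises. Of 41 adhesion and orphan G protein-coupled receptors 14 fell and 0 rose (median -0.22), where 11.6% of all genes fell and 7.18% rose. Adgrg1, an adhesion receptor known for its role in cortical layering, read 8.17, 8.18 and 8.39 in siPRMT1, 9.60, 9.96 and 9.98 in siSCR and 9.92 to 10.08 in D3. siSCR replicate 1 lay close to its group, at 0.21 of the way to siPRMT1, and Adgrg1 fell by 1.60 (SE 0.123, adjusted p = 0.000115). Of 37 transmitter and hormone receptors 9 fell and 0 rose (median -0.06), and 2 fell without siSCR replicate 2 or 3. Tacr1, the substance P receptor, read 7.31, 6.89 and 7.02 in siPRMT1 and 8.34, 8.43 and 8.47 in siSCR, with D3 at 8.34 to 8.59. It fell by 1.34 (SE 0.118, adjusted p = 0.000133), and siSCR replicate 1 stayed with the controls. Without siSCR replicate 1 15 of these receptors fell.

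Of 40 leucine-rich repeat proteins of neurons 14 fell (median -0.24), where 11.6% of all genes did. The falls were led by the synapse organiser Lrrtm2 (-1.70, SE 0.278, adjusted p = 0.00271). They were 20 without siSCR replicate 1, 8 without siSCR replicate 2 and 7 without siSCR replicate 3. Of 26 neurotrophin, neuregulin and related genes 9 fell (median -0.23). The neurotrophin receptor Ntrk2 read 6.03, 6.10 and 6.41 in siPRMT1, 7.09, 8.17 and 7.96 in siSCR and 8.01 to 8.11 in D3, and fell by 1.56 (SE 0.22, adjusted p = 0.00138). The ligand Nrg3 fell by 1.63 (SE 0.346) and its receptor Erbb4 by 1.27 (SE 0.182). Of 30 activin, TGF-beta and inhibitor genes 10 fell against siSCR and 5 against D3. Tgfb2, a ligand, fell by 0.57 (SE 0.0755, adjusted p = 0.00102), and siSCR replicate 1 (8.09) lay with its group (8.26 and 8.07) and above siPRMT1 (7.44 to 7.70). Quantile normalisation gave 3 higher and 6 lower genes in this group, and it had 6 falls without siSCR replicate 2 or 3.

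In the insulin-like growth factor system 7 of 20 genes fell and 2 rose (median -0.19), where 11.6% of all genes fell and 7.18% rose. The binding protein Igfbp5 read 9.54, 9.91 and 9.79 in siPRMT1, 10.43, 10.61 and 10.65 in siSCR and 10.38 to 10.62 in D3. It fell by 0.82 (SE 0.116, adjusted p = 0.00142), with siSCR replicate 1 among the controls, and Igfbp3 fell by 0.75 (SE 0.123, adjusted p = 0.00271). The RNA-binding protein Igf2bp3 rose by 0.64, which was lost without siSCR replicate 3 (0.57, adjusted p = 0.0589).

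Transcription factor groups had calls in both directions. Of 41 LIM, POU and Onecut factors and partners 13 fell and 3 rose (median -0.18). Of all genes 11.6% fell and 7.18% rose, so the rises were near the share of all genes. Against D3 20 of the group fell, beside 14.7% of all genes. The falls were led by the LIM cofactor Ldb2 (-1.24, SE 0.219), Tshz2 (-1.22, SE 0.169) and Bcl11a (-1.20, SE 0.175). Isl1, a factor of motor and sensory neurons, rose by 0.51 (SE 0.104, adjusted p = 0.00765). Of 24 nuclear receptors and coregulators 3 fell and 1 rose (16.7%), near the 18.7% of all genes. Thra, a thyroid hormone receptor, read 8.28, 7.93 and 8.15 in siPRMT1, 9.27, 9.85 and 9.88 in siSCR and 9.74 to 9.76 in D3. It fell by 1.54 (SE 0.157, adjusted p = 0.000304). Nr6a1, a germ cell and early embryo receptor, read 8.88, 9.45 and 8.97 in siPRMT1, 8.46, 8.31 and 8.21 in siSCR and 8.30 to 8.39 in D3, and rose by 0.77 (SE 0.132, adjusted p = 0.00321).

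Motors, transporters and metabolic enzymes had more falls than rises, as did all genes (11.6% against 7.18%). Of 33 kinesin and dynein genes 11 fell, led by Kif21b (-0.90, SE 0.11, adjusted p = 0.00076) and the axonal motor Kif1a (-0.85, SE 0.115, adjusted p = 0.00108), and 6 fell without siSCR replicate 2 or 3. Of 38 amino acid and ion carriers 14 fell, with the glutamate transporters Slc1a1 (-1.11) and Slc1a2 (-1.09), and the zinc and manganese carrier Slc39a8 rose (0.45, SE 0.0778, adjusted p = 0.00339). They were 9 without siSCR replicate 2 or 3. Of 18 glycolysis genes 3 fell, among them the neuronal enolase Eno2 (adjusted p = 0.00556), at 7.19, 6.50 and 7.17 in siPRMT1 against 7.67, 8.19 and 8.00 in siSCR. The share called in this group (16.7%) was near that of all genes, the median was -0.01, and 1 gene fell without siSCR replicate 2 or 3. Of 34 ganglioside and sialic acid enzymes 8 fell, led by B3gat2 (-1.39) and B3gat1 (-1.14), which make the HNK-1 epitope, and 4 fell without siSCR replicate 2 or 3. Of 37 matrix proteases and inhibitors 8 fell and 1 rose, with Timp4 at -1.08 (SE 0.129, adjusted p = 0.00064) and Adamts9 at 0.61 (SE 0.0885, adjusted p = 0.00154), and 3 or 4 fell without siSCR replicate 2 or 3. Of 40 secretory and endosomal coat genes 7 fell, with the dynamins Dnm3 (-1.83) and Dnm1 (-1.08), and Sec13 rose (0.26). Without siSCR replicate 2 or 3 4 fell.

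Imprinted genes, which are expressed from 1 parental copy, were called in both directions. Of 34 tested 8 fell and 3 rose (median 0.00), and 3 fell without siSCR replicate 2 or 3. Of all genes 11.6% fell and 7.18% rose, so the rises were near the share of all genes. Usp29, a deubiquitinase gene expressed from the paternal copy, read 5.38, 4.95 and 5.29 in siPRMT1, 5.92, 7.25 and 6.85 in siSCR and 6.83 to 7.09 in D3. It fell by 1.47 (SE 0.255, adjusted p = 0.0035), and siSCR replicate 1 was the lowest control. Its siPRMT1 mean lies under the filter value, as in 2 of the 8 falls. Its neighbour Peg3, a zinc finger gene also expressed from the paternal copy, read 10.33, 9.57 and 10.16 in siPRMT1, 10.57, 10.92 and 10.83 in siSCR and 10.67 to 10.80 in D3. Its fall of 0.75 (SE 0.178, adjusted p = 0.014) was lost without siSCR replicate 2 (-0.68, adjusted p = 0.061) or 3 (-0.72, adjusted p = 0.0566). The adaptor Grb10 rose by 0.53 (SE 0.0726, adjusted p = 0.00112), at 10.73, 11.01 and 10.84 in siPRMT1 against 10.33, 10.28 and 10.36 in siSCR, with D3 between at 10.49 to 10.59. Peg10 rose by 0.21 against siSCR and lay at -0.02 against D3 (adjusted p = 0.781). The rise of Peg10 was lost without siPRMT1 replicate 1 (0.22) or 3 (0.21) and without siSCR replicate 2 (0.22) or 3 (0.17).

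Usp29 and Peg3 start head to head, 164 bases apart, and are shown because both fell. The RefSeq window around the Usp29 start is at GRCm38.p6 chr7:6730333-6730632, on the plus strand. Capitals mark the stretch from the Peg3 start at 6730419 to the Usp29 start at 6730583, and the lower-case ends lie inside the transcribed side of each gene. No array value bears on its methylation.
Usp29 promoter: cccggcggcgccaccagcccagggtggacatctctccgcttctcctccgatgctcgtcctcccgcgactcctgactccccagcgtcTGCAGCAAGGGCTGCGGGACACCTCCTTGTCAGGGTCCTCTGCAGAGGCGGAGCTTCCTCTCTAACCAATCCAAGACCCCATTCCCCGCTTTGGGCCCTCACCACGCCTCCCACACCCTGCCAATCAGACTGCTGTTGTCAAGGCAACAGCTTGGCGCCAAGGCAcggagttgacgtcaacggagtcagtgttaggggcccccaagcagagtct

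**Figure D5:**
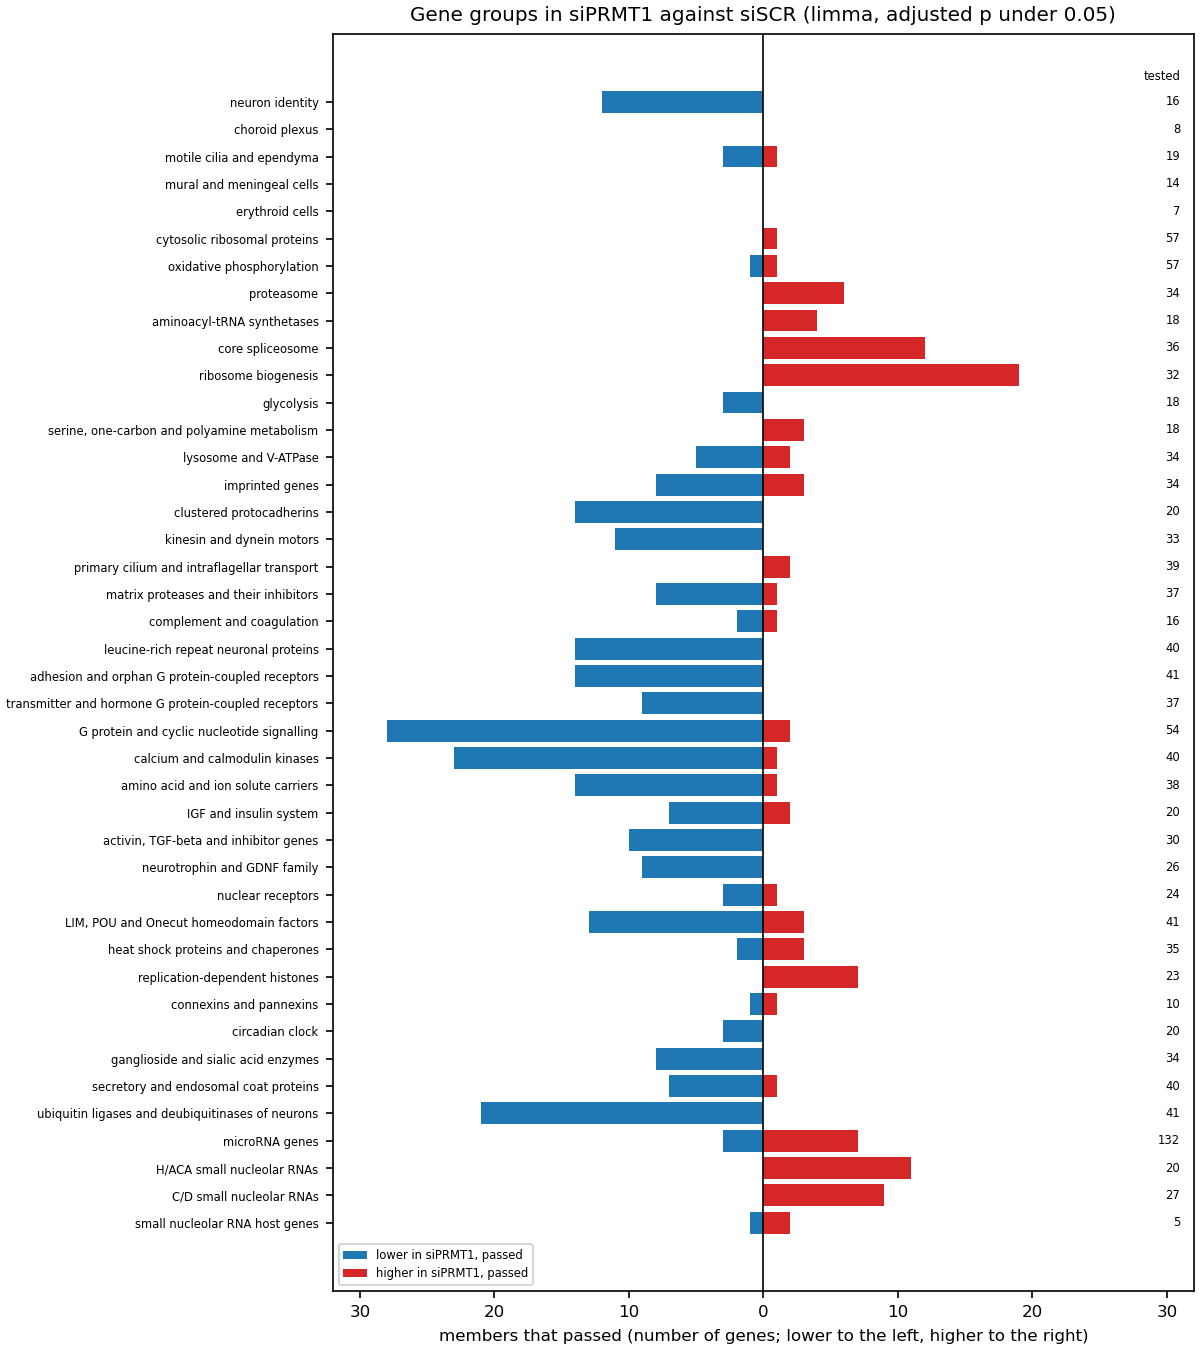
Number of members of each of 42 gene groups that passed as higher (red, right) or lower (blue, left) in the siPRMT1 to siSCR comparison (adjusted p under 0.05, n = 3 per group), with the number tested at the right edge. Ribosome biogenesis (19 of 32) has the longest bar of rises, and G protein signalling (28 of 54) the longest bar of falls.

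The remaining groups had called shares of 5.13% to 20.6%, beside 18.7% of all genes. Heat shock proteins and chaperones had 3 rises and 2 falls among 35 genes, with the immunophilin Fkbp4 at 0.31 (adjusted p = 0.00899). This count moved with the setting, to 13 rises and 2 falls when centred on the named probe sets, 6 and 4 without siSCR replicate 1, and 1 and 0 without siSCR replicate 2 or 3. Lysosome and V-ATPase genes had 2 rises and 5 falls among 34, with the pump subunits Atp6v1g2 (-0.83), Atp6v0e2 (-0.78) and Atp6v0a1 (-0.49) among the falls. The call of Atp6v1g2 was lost without siPRMT1 replicate 1 (-0.77) or 3 (-0.86) and without siSCR replicate 2 (-0.70) or 3 (-0.60), and the group had 2 falls without siSCR replicate 2 or 3. Primary cilium genes had 2 rises among 39, with Ttc21b at 0.32, which did not pass against D3 (0.10, adjusted p = 0.302). Circadian clock genes had 3 falls among 20, with the repressor Nfil3 at -0.45 (adjusted p = 0.00666), and 1 fall without siSCR replicate 2 or 3. Complement and coagulation genes had 1 rise, Cd59a (0.43), and 2 falls among 16. Cd59a did not pass against D3 (0.14, adjusted p = 0.249). The fall of Gas6 (-0.75, adjusted p = 0.00598) did not pass against D3 either (-0.21, adjusted p = 0.31). Of 10 connexins and pannexins Gja1 rose (0.71) and Gjd2, a neuronal connexin with a siPRMT1 mean under the filter value, fell by 0.84, a call lost when siSCR replicate 2 (-0.65) or 3 (-0.68) or siPRMT1 replicate 1 (-0.75) or 3 (-0.85) was left out.

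Markers of other cell types were examined beside these groups. None of 8 choroid plexus, 14 mural and meningeal or 7 erythroid genes passed, where 18.7% of all genes did. Their mean levels in siPRMT1 were 7.15 to 7.38, 6.69 to 6.86 and 5.95 to 6.13. In siSCR those means were 7.28 to 7.46, 6.71 to 6.89 and 5.77 to 5.92, and in D3 7.11 to 7.19, 6.70 to 6.78 and 5.84 to 5.93. Of 19 motile cilia genes 3 fell and 1 rose (21.1%, near the 18.7% of all genes), with the axonemal gene Spag6l at -0.57 (SE 0.114, adjusted p = 0.00673). No level is known to be background here, so these means do not show that such cells were absent.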

How the data were processed

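RNA of 12 cultures was read on mouse Gene 1.0 ST arrays, 1 array per culture and 3 per group. The deposited values are log2 signals of 35556 probe sets, from 0.97 to 13.54. How the authors corrected the background, summarised probes and normalised arrays is not given in the sources used here. Array medians differed by at most 0.023. Interquartile ranges were 2.89 to 3.04 in siPRMT1 and 3.06 to 3.13 in siSCR. No 2 arrays were duplicates (r 0.945 to 0.997). Scanner files were not used here, so no probe set has a detection call, and the number of arrays limits the precision. The labels give no batch or date.

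Probe sets were named from the platform annotation (21789 with 1 symbol, 1621 with several, 12146 with none), with symbols updated by gene ID for 21698. The brightest probe set stood for each of the 999 symbols with several. The lowest 25% of genes by mean level, under 5.43, were left out, which kept 14953 of 19938. Group means were fitted with limma 3.58.1 (R 4.3.3) over 12 arrays, with 8 residual degrees of freedom and Benjamini-Hochberg adjustment over all genes tested. A call is an adjusted p under 0.05. On simulated data for siPRMT1 against siSCR, with 200 of 14953 genes changed, 79.1% of changes of 1.5-fold were called, as were 97% of those of 2-fold and 100% of those of 4-fold, beside 9 unchanged genes. The simulated noise was drawn separately for each gene and array. No simulated array stood apart as siSCR replicate 1 did, so these rates do not give the error of the calls above.

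The comparison, its 38 gene lists (1391 entries, 1219 found on the array) and 4 classes by symbol were chosen with earlier results of these data known. Lists are described by counts and medians only. The lists cover ribosomal, splicing, metabolic, signalling, receptor, transcription factor, protocadherin, imprinted and cell type genes. Named genes are Prmt1 and the 20 largest rises and 20 largest falls whose groups do not overlap. Added were the 10 and 10 beyond both control groups, and up to 8 and 8 where siSCR passed against D3 and siPRMT1 did not. Only 3 genes met the latter rule. Others were the 8 and 8 of each place of siSCR replicate 1 and up to 10 and 10 apart from all groups. Up to 3 and 3 per list were named as well, in each case the largest. The text gives a selection of these. Predicted genes, small RNAs and olfactory, vomeronasal and Speer families were excepted; small RNAs and any other gene outside this rule were named after their values were seen. Alternatives were other controls, scalings, filters, variance models, left-out arrays and a replicate block.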

Additional observations from a re-analysis of the deposited data

Results flagged for a closer look

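In 12 named genes the change in siPRMT1 against siSCR differed from the change in siPRMT8 against siSCR, by the limma test of siPRMT1 against siPRMT8, in which siSCR cancels. Prmt1 was lower by 1.49 in siPRMT1 than in siPRMT8 (log2 -1.49). This includes a rise of Prmt1 in siPRMT8 against siSCR (0.43, adjusted p = 0.00625). Sdc2 (0.20, adjusted p = 0.0482) and Agtr1a (0.26, adjusted p = 0.0254) also rose in siPRMT8 against siSCR. The other genes lower in siPRMT1 were Pdgfc (-0.55), Tfap2a (-0.59), Mgst1 (-0.50), Sdc2 (-0.43) and Sema3c (-0.59). Those higher in siPRMT1 were Pga5 (1.06), Aspa (0.81), Agtr1a (0.52), Rab3il1 (0.42), Jund (0.42) and Cmklr1 (0.62). Sema3c, Jund and Cmklr1 were chosen after their values were seen, and they are not among the 9 genes apart from all groups. Those 9 were picked with this same test, so it adds no further support for them.

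Against siSCR the secreted guidance factor Sema3c fell (-0.48, adjusted p = 0.00613) and the AP-1 subunit Jund fell (-0.41, adjusted p = 0.00251). The chemerin receptor Cmklr1 rose (0.35, adjusted p = 0.0134), which was lost without siPRMT1 replicate 3 (0.31) or siSCR replicate 3 (0.31). Jund thus lay below siSCR and above siPRMT8.

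Probe sets outside the gene table also changed. Of 7025 tested probe sets with no symbol 313 passed against siSCR (4.46%, 121 higher and 192 lower). Of 1035 with several symbols 77 passed (7.44%, 18 higher and 59 lower). Groups of 3 arrays are too small for the test of single outlying samples.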

How the results depend on the processing

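The fit over these 6 arrays alone called 357 genes (58 higher, 299 lower) in place of 2801 (1073 and 1728). In that fit no ribosome biogenesis, core spliceosome or proteasome gene passed, and no H/ACA or C/D small nucleolar RNA or clustered protocadherin did. Taking the mean of siSCR and D3 as control gave 4320 calls and 1971 rises, and D3 alone gave 1750 rises. Quantile normalisation gave 1709 rises, and centring on the named probe sets, added after the data were seen, gave 2434. Array weights gave 5528 calls (2911 higher, 2617 lower), and leaving out both siSCR replicate 1 and siPRMT1 replicate 2 gave 5077 (2598 higher, 2479 lower). Leaving out 1 array at a time gave 1317 to 3763 calls, 353 to 1617 rises and 925 to 2146 falls. The lowest counts came without siSCR replicate 2 or 3, and the call count of 1771 without siPRMT1 replicate 3 was also far from 2801.

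The 9 genes apart from all groups were 5 with the replicate block, 5 with no filter, 346 with array weights, 712 without siSCR replicate 1 and siPRMT1 replicate 2, and 2 to 208 without 1 array. The fit of 6 arrays and the other control groups cannot give this count.

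With D3 as control 4 named genes called against siSCR changed sign, Aldh1a7 (0.55), Peg10 (-0.02), Ctse (0.02) and Tff1 (0.42), as did Psca (0.25) and Krt7 (0.19), which were not called. For the replicate block, siSCR and siPRMT1 arrays of the same number deviated together with r of 0.207, -0.0426 and -0.105, so the number does not pair them. D3 and siSCR arrays of the same number gave 0.161, 0.194 and 0.107. The block gave 2506 calls, 842 of them higher and 1664 lower, and Pdgfc, Rab3il1, Sdc2 and Tfap2a left the set of 9. Of the 242 named genes 161 were no longer called in the fit of 6 arrays, 78 without siSCR replicate 2, 71 without siSCR replicate 3, 51 without siPRMT1 replicate 3 and 38 without siPRMT1 replicate 1. Each group is 1 line, the siSCR arrays were unequal, and arrays give relative signal only. Calls lost without a single array included large changes, such as Vsnl1 (-1.86) and Mir302d (1.81).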

Other observations

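Several genes known from mucosal and gastric epithelium changed between siPRMT1 and siSCR, in both directions. They were put together after their values were seen, with no list and no test of the group. Vsig1, Anxa10, Sprr1a, Gsdmc2 and Agr2 were named because siSCR replicate 1 stayed with its group or beyond, and Muc1, Cldn18, Ctse, Tff1, Psca, Krt7 and Gkn1 were added after their values were seen. Vsig1, an adhesion protein of gastric epithelium, read 5.63, 5.55 and 5.17 in siPRMT1, 7.73, 6.85 and 6.72 in siSCR and 5.82 to 6.27 in D3. Among these groups siSCR was the high one, with siSCR replicate 1 the highest. The siPRMT8 arrays read 6.44, 6.48 and 7.01 and overlapped siSCR. Vsig1 fell by 1.65 (SE 0.248, limma adjusted p = 0.00184), and its difference of -0.54 against D3 did not pass (adjusted p = 0.124). Agr2, a secretory pathway protein of mucous cells, read 7.41, 6.95 and 6.84 in siPRMT1, 9.02, 8.01 and 8.19 in siSCR and 6.86 to 7.32 in D3. The siPRMT8 arrays of Agr2 read 7.93, 8.50 and 8.72, like siSCR. Agr2 fell by 1.34 against siSCR (SE 0.266, adjusted p = 0.0063) and did not pass against D3 (adjusted p = 0.999).

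The annexin Anxa10 fell by 1.64 (SE 0.302), the cornified envelope gene Sprr1a by 1.51 (SE 0.266) and the gasdermin Gsdmc2 by 1.47 (SE 0.258). None of them passed against D3 (-0.38, -0.43 and -0.64 in the same order, adjusted p = 0.36, 0.249 and 0.0854). The siSCR means lay above D3 by 1.26, 1.08 and 0.83. The siPRMT8 means (6.70, 8.13 and 6.44) lay between those of D3 (5.93, 7.62 and 5.95) and siSCR (7.19, 8.70 and 6.78). The mucin Muc1 fell by 1.18 (SE 0.22) and the tight junction gene Cldn18 by 0.96 (SE 0.195). In each of these 5 genes siSCR replicate 1 was the highest of its group. The gastric protease Ctse fell by 0.99 (adjusted p = 0.0221), which was lost without siPRMT1 replicate 1 (-0.96) or 3 (-0.79). The trefoil peptide Tff1 fell by 0.86 (adjusted p = 0.046), a call lost without siPRMT1 replicate 1 (-0.95) or 3 (-0.67) and without siSCR replicate 1 (-0.52), 2 (-1.03) or 3 (-1.03). Psca lay at -0.93 (adjusted p = 0.0534) and the keratin Krt7 at -0.11 (adjusted p = 0.589). Other gastric genes went the opposite way, with Pga5 at 1.31, Gkn2 at 0.91 and Gkn1 at 0.48 (adjusted p = 0.0212). The rise of Gkn1 was lost without siPRMT1 replicate 1 (0.34) or 3 (0.50) and without siSCR replicate 2 (0.43) or 3 (0.50).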
